A study of Mus musculus with 59 samples.

Results

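Ptprs, Rasa4, Coro2b, Scrn1, Sntb1, Gfra2 and Sstr4 are 7 genes that encode signalling and cytoskeletal proteins. Each had a peak of trimethylated histone H3 lysine 4 (H3K4me3) that was lower in the uterus of old than of young mice. Other peaks of some of these genes were not lower, among them the peaks over the starts of Ptprs and Rasa4. The members were all peaks that the deposited tables assign to these genes, 15 H3K4me3 peaks and 20 peaks of acetylated histone H3 lysine 27 (H3K27ac), together 35 of 80197 peaks. The genes were picked for their H3K4me3 values in the oldest against the youngest animals, so those values are given as a description, without a test. H3K27ac at the same genes did not choose them and was tested, although both marks came from the same animals.

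The series held 59 chromatin immunoprecipitation libraries of uterus from C57/B6 mice, and the labels name no treatment and no genotype beyond the strain. Young animals were 9 to 11 weeks old (n = 7), aged group 1 was 28 to 36 weeks (n = 4), aged group 2 was 42 to 48 weeks (n = 6) and aged group 3 was 54 to 65 weeks (n = 10). Each of the 27 animals gave a single library per mark, and 5 input libraries were not used here. Nuclei came from pieces of frozen endometrial tissue with all of its cell types, so fewer cells of a type and less of a mark per cell cannot be told apart.

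H3K4me3 is placed on nucleosomes at the starts of transcribed genes and marks most active promoters, many of which are rich in CpG dinucleotides. H3K27ac marks active promoters and active enhancers, the distal elements that raise transcription. The endometrium is a mix of epithelium, stroma, vessels and leukocytes beside the smooth muscle of the uterine wall, and each cell type carries its own set of marked promoters. Among the 7 genes, Ptprs encodes a receptor tyrosine phosphatase that binds heparan and chondroitin sulfate proteoglycans. Gfra2 encodes the co-receptor through which neurturin signals with the kinase Ret, and Sstr4 a G protein-coupled receptor for somatostatin. Rasa4 encodes a calcium-responsive GTPase-activating protein that switches off Ras. Coro2b encodes an actin-binding coronin, and Sntb1 encodes beta-1-syntrophin, an adaptor of the dystrophin complex beneath the plasma membrane. Scrn1 encodes secernin 1, a cytosolic protein linked to regulated exocytosis.

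Promoter sequence is shown for the genes whose RefSeq start lay under a losing H3K4me3 peak, and for 2 genes whose start lay under a peak that did not lose the mark. A losing peak is one with a lower value in aged group 3 than in young at an adjusted p under 0.05. The RefSeq promoter table (GRCm38.p6) held 6 promoters of 5 of the 7 genes, and Gfra2 and Sntb1 are named only. Each sequence runs 5′ to 3′ on the gene's strand, from 250 bases before the start to 50 after it. Capitals mark the letters of 4 promoter motifs searched on both strands: the GC box (GGGCGG), the CCAAT box (CCAAT), the TATA box (TATAAA) and the palindromic E-box (CACGTG). Overlapping matches were counted separately. The first 3 starts lay under losing peaks: Sstr4 at chr2:148395127-148395426 (plus strand), Scrn1 at chr6:54566333-54566632 (minus strand) and Coro2b at chr9:62536995-62537294 (minus strand).
Sstr4: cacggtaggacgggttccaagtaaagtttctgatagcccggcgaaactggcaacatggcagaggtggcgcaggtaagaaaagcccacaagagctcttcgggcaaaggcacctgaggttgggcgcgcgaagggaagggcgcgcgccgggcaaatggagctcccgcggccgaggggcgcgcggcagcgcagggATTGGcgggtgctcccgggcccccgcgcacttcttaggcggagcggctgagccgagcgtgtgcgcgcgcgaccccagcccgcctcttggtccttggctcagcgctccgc
Scrn1: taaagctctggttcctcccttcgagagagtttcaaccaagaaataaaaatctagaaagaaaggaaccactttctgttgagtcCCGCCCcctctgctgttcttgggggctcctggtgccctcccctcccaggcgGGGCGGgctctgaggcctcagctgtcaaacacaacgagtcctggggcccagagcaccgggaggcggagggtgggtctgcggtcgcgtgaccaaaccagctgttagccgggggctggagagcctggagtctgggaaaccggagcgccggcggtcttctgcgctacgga
Coro2b: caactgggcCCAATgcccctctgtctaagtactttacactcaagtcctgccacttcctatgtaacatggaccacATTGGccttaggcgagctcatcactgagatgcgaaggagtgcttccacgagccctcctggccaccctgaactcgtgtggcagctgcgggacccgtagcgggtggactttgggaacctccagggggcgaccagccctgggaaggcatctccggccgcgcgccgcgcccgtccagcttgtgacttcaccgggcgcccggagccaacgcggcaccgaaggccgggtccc
The other 2 starts lay under peaks that were not lower: Rasa4 at chr5:136083666-136083965 (plus strand) and Ptprs at chr17:56476431-56476730 (minus strand).
Rasa4: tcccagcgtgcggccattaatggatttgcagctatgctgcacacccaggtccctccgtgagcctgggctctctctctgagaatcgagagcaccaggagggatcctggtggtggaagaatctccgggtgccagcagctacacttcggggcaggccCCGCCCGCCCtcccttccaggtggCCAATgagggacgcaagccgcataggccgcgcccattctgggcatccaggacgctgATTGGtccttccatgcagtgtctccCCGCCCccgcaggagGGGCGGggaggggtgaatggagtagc
Ptprs: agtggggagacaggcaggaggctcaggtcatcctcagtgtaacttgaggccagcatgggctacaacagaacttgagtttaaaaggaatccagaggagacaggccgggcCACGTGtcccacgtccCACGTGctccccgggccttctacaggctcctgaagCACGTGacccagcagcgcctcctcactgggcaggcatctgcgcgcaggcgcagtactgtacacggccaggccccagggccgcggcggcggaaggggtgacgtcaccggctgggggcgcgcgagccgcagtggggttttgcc

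All 5 printed promoters were rich in CpG dinucleotides, with 35 at Sstr4, 22 at Coro2b, 21 at Ptprs, 17 at Scrn1 and 16 at Rasa4. The median over all 32851 RefSeq promoters of the table was 7. Their GC content lay between 61.3% at Scrn1 and 68.7% at Sstr4, against a median of 52.7%. No motif set the 3 losing starts apart from the other 2. GC boxes were found at Scrn1 (2) and Rasa4 (4), and in 35.7% of all promoters. CCAAT boxes were found at Sstr4 (1), Coro2b (2) and Rasa4 (2), and in 37.4% of all promoters. The Ptprs promoter held 3 E-boxes, a motif found in 7.15% of promoters, and the TATA box, found in 13.6%, was in none of the 5. The sixth promoter of the table, a downstream Ptprs start (chr17:56462172-56462471) under an inner peak that did not lose the mark, is not printed and held 18 CpG dinucleotides and 3 GC boxes. A match of letters is a description of the window and not evidence of binding.

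Values are log2 RPKM, the log2 of reads scaled by peak length and library total, set to a common distribution (quantile normalization) over each mark's 27 libraries. A difference of 1 is a doubling of the level. Depth was 6.835 to 48.29 M reads for H3K4me3 and 7.604 to 16.945 M for H3K27ac, with a median of 120 and 50 reads per peak. The libraries of a group carry separate mouse numbers, so the spread holds both animals and library preparation. Some libraries of aged group 3 stood apart in tissue markers. Promoter H3K4me3 was higher in aged group 3 at 15 of 17 measured epithelial marker genes and lower at 12 of 14 stromal and 7 of 14 smooth muscle marker genes, with no opposite call in any of the 3 lists. Leukocyte markers were higher at 5 of 10 genes and lower at 0, with a median score of 1.73 in young and 2.24 in aged group 3. Endothelial markers were lower at 2 and higher at 3 of 13 genes. Mesothelium and fat markers were lower at 2 and higher at 1 of 3 genes. Nerve and Schwann cell markers were lower at 1 and higher at 0 of 3 genes. Over all H3K4me3 peaks the same fit called 16.4% lower and 14.2% higher. The epithelium score in H3K4me3, the mean promoter H3K4me3 of its list, ran from 2.2 to 2.99 in young and from 2.29 to 4.01 in aged group 3. The stroma score in H3K4me3 ran from 3.06 to 3.57 in young and from 1.74 to 3.58 in aged group 3. Scores were made for each mark from its own libraries. Fits of H3K27ac thus used scores of promoter H3K27ac in the libraries being fitted, over 15 epithelial and 14 stromal genes. Krt7 among epithelial markers and Hoxa10, Hoxa11 and Hand2 among stromal markers had no peak within 1 kb of their RefSeq start.

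H3K4me3 was lower in aged group 3 than in young at 8 of the 15 peaks, with at least 1 such peak at each of the 7 genes. At an adjusted p under 0.05 the same fit called 16.4% of all H3K4me3 peaks lower and 14.2% higher. The members were chosen on this contrast, so their share of 53.3% is not a result. The 8 losing peaks fell into 2 kinds. At Sstr4, Scrn1, Gfra2, Sntb1 and Coro2b the peak over the RefSeq start was lower. At Ptprs, Rasa4 and again Coro2b a narrow peak far from the start was lower.

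The inner Ptprs peak (chr17:56425026-56426102, 1077 bases long, inside the gene, 50459 bases downstream of the start) had the largest difference. Its level in young was 2.30 ± 0.25 (SD, n = 7), with the lowest library at 1.88, the median at 2.35 and the highest at 2.66. In aged group 3 it was 0.54 ± 0.71 (SD, n = 10), with values from -0.38 through a median of 0.55 to 1.89. The difference was -1.76 ± 0.28 (SE), and 9 of 10 old libraries lay below the lowest young one. The exception was replicate 4, at 1.89 against 1.88. Reads behind these values were few, with a median of 59 in young and 14.5 in aged group 3, and as few as 3.

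The inner Rasa4 peak (chr5:136102281-136102812, 532 bases long, inside the gene, 18365 bases downstream of the start) had the fewest reads of the 8. Its level was 2.30 ± 0.39 in young (SD, n = 7), from 1.82 through a median of 2.14 to 2.88. In aged group 3 it was 0.92 ± 0.50 (SD, n = 10), from 0.03 through 0.89 to 1.64. The groups did not overlap, and the difference was -1.39 ± 0.22 (SE). Median reads were 25 and 9, with a lowest count of 2, so single old libraries are imprecise here.

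The third distal peak lay 3831 bases past the 3′ end of Coro2b (chr9:62414748-62415659), inside the span of a RefSeq long non-coding RNA gene, Gm40523 (chr9:62414337-62415667). The deposited table calls it upstream, which follows chromosome order, whereas Coro2b is on the minus strand. Young libraries ran from 1.77 through a median of 2.40 to 2.91, and aged group 3 from 0.41 through 1.03 to 1.58. All 10 old libraries lay below all 7 young ones, and the difference was -1.37 ± 0.22 (SE). Median reads were 50 in young and 17.5 in aged group 3. Whether the peak belongs to Coro2b or to the non-coding gene was not tested.

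The start peaks of the receptor genes Gfra2 and Sstr4 were lower. The Gfra2 start peak (chr14:70889324-70891685) ran from 2.11 through a median of 2.50 to 2.67 in young and from 0.73 through 1.36 to 1.86 in aged group 3. The groups did not overlap, and the difference was -1.10 ± 0.18 (SE). The Sstr4 start peak (chr2:148394910-148396270), over the first part of this short gene, ran from 2.73 through 3.00 to 3.29 in young and from 1.72 through 2.09 to 2.62 in aged group 3. Again no library overlapped, and the difference was -0.93 ± 0.14 (SE). These were the only H3K4me3 peaks of Gfra2 and Sstr4, so no other peak of either gene could be set beside them. Scrn1 and Sntb1, described next, also had a single H3K4me3 peak each.

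Scrn1 and Sntb1 had the highest starting levels. The Scrn1 start peak (chr6:54565175-54567020) was tight in young, at 3.39 ± 0.068 (SD, n = 7) with values from 3.32 through 3.38 to 3.52. In aged group 3 it was 2.61 ± 0.33 (SD, n = 10), from 2.16 through 2.72 to 3.00, all below the young range, and the difference was -0.78 ± 0.12 (SE). Its old values split into a lower set of 4 libraries between 2.16 and 2.28 and 6 between 2.72 and 3.00. The Sntb1 start peak (chr15:55904691-55907352) was 4.02 ± 0.15 in young (SD, n = 7), from 3.88 through 3.97 to 4.23. In aged group 3 it was 3.46 ± 0.22 (SD, n = 10), from 3.13 through 3.40 to 3.92. The difference of -0.56 ± 0.09 (SE) was the smallest of the 8, and 9 of 10 old libraries lay below the lowest young one. It also had the most reads, with a median of 461 in young and 288 in aged group 3.

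The Coro2b start peak (chr9:62535944-62537367) was, of the 8, the losing peak nearest to the threshold. Young libraries averaged 2.95 ± 0.25 (SD, n = 7) and old ones 2.33 ± 0.34 (SD, n = 10), a difference of -0.62 ± 0.14 (SE). The highest old library, at 3.00, lay within the young range, and 8 of 10 lay below its lowest value of 2.66. Nearest to it on the other side were an inner Ptprs peak (chr17:56460495-56463440), at -0.18 ± 0.073 (SE), and an inner Coro2b peak (chr9:62420722-62422180), at -0.27 ± 0.12 (SE). Over the 15 peaks 5 had no overlap between young and aged group 3, the strongest peaks of Rasa4, Coro2b, Gfra2, Sstr4 and Scrn1. Over all H3K4me3 peaks 0.352% were arranged so. The genes were chosen on this contrast, so this count is not a result.

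**Figure D1:**
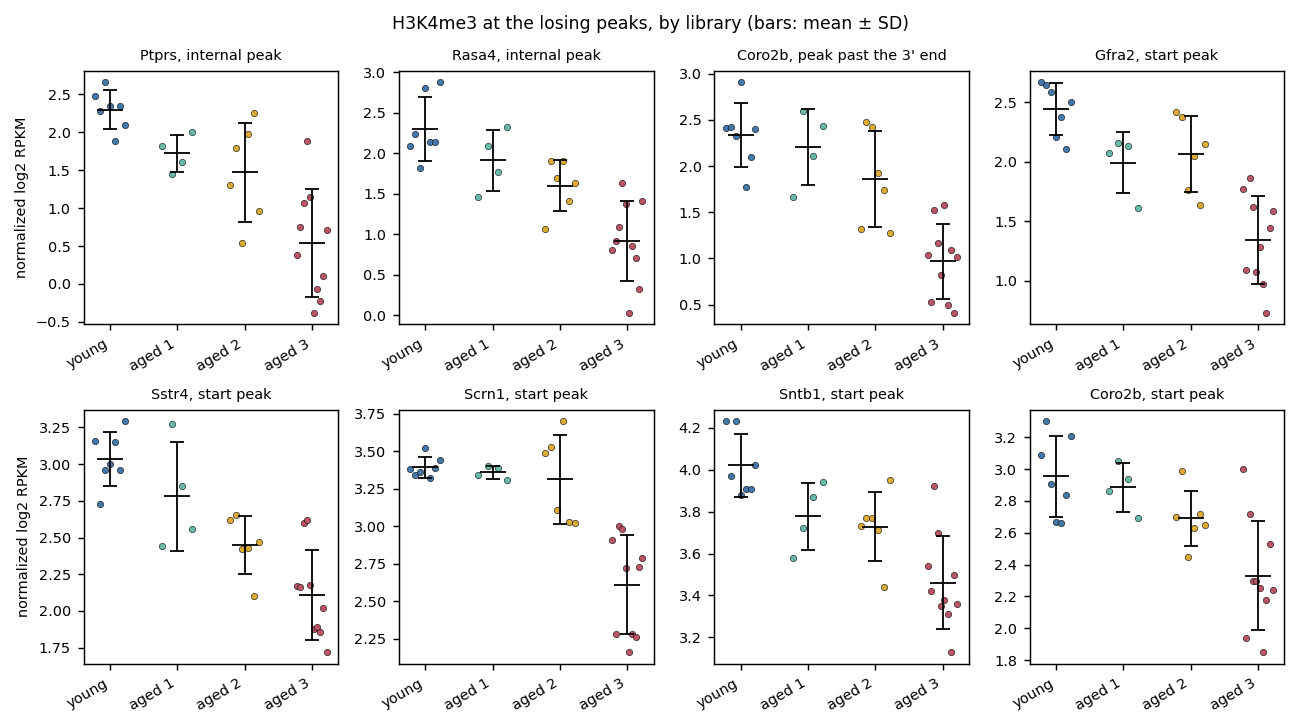
Normalized H3K4me3 log2 RPKM (y axis) of each library at the 8 losing peaks, by age group (x axis), with a point per animal and bars for the group mean ± SD. In 5 panels every aged group 3 point lies below every young point, and at Scrn1 the middle groups stay at the young level while aged group 3 lies between 2.16 and 3.00.

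The other 7 H3K4me3 peaks of these genes were set apart by not passing that threshold downward, and 4 of them were also lower in value. At Rasa4 the broad peak over the start (chr5:136083075-136086673) averaged 2.57 ± 0.16 over 7 young and 2.95 ± 0.60 over 10 old libraries (SD), a difference of 0.39 ± 0.19 (SE). Of 10 old libraries 5 lay above the highest young one, up to 4.30. The start and the inner peak of Rasa4 thus had differences of opposite sign, but with tissue balance (each library's epithelium score less its stroma score) in the model the start peak was at -0.02. Ptprs showed the same arrangement. Its 7212-base start peak (chr17:56472016-56479227) averaged 2.05 ± 0.12 over 7 young and 2.59 ± 0.54 over 10 old libraries (SD), a difference of 0.55 ± 0.20 (SE). Here 8 of 10 old libraries lay above the highest young one, and the peak was the 1 of 15 past the threshold upward. Its promoter, printed above, holds the 3 E-boxes. With tissue balance in the model this difference was -0.11. The RefSeq long non-coding gene Gm32822 spans this start and another, Gm9258, lies within the peak, and the peak could not be assigned to a single one of these genes.

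Between its start and the inner losing peak Ptprs carried 3 further H3K4me3 peaks, with differences of -0.27 ± 0.35, -0.18 ± 0.073 and 0.08 ± 0.31 (SE). Coro2b carried 2 between its start and its end, with -0.27 ± 0.12 and -0.11 ± 0.25 (SE). The median over the 15 peaks was -0.56, and over all H3K4me3 peaks -0.02.

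**Figure D2:**
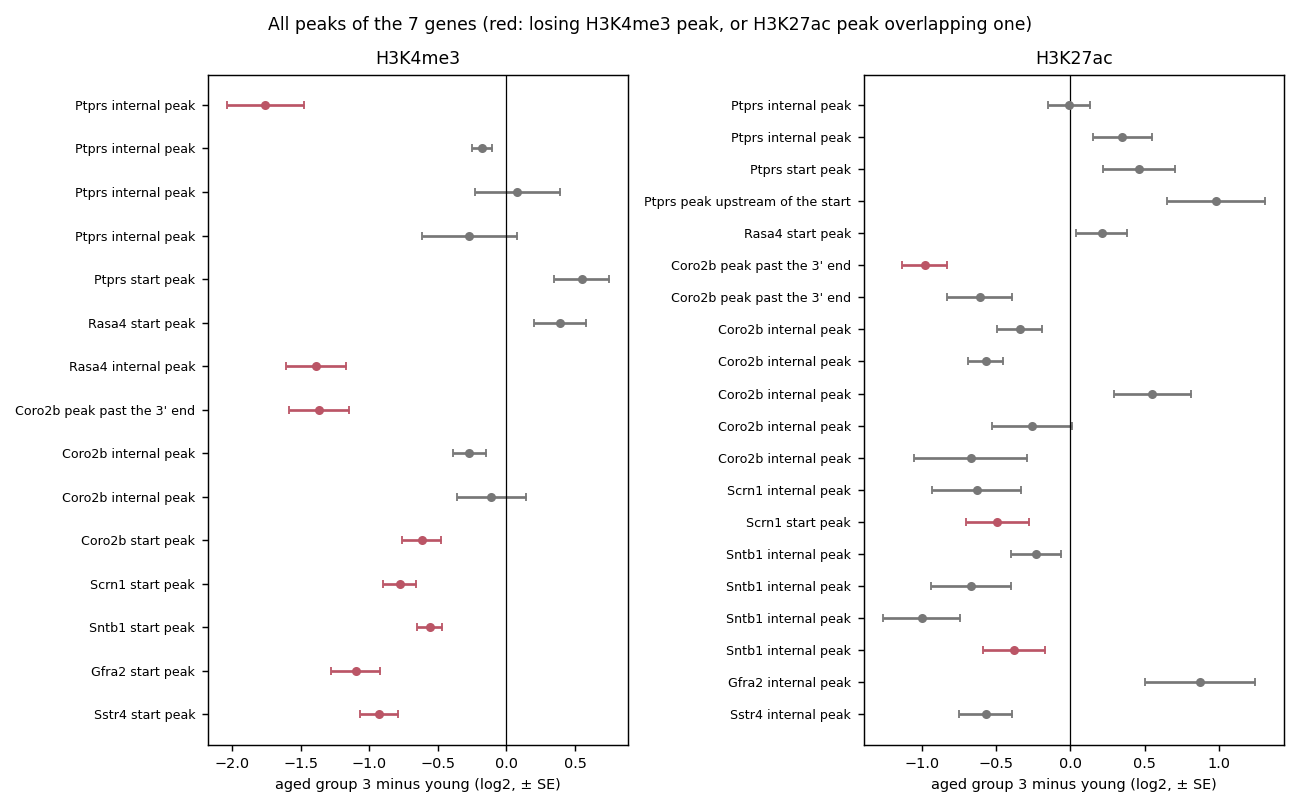
Difference of aged group 3 minus young (x axis, log2, mean ± SE) at the 15 H3K4me3 peaks (left) and 20 H3K27ac peaks (right) of the 7 genes, with losing H3K4me3 peaks and the H3K27ac peaks over them in red. The start peaks of Ptprs and Rasa4 lie right of 0 in both marks, while the inner H3K4me3 peaks of these genes are at -1.76 and -1.39.

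The groups between young and oldest gave intermediate values at most losing peaks. At the inner Ptprs peak the 4 libraries of aged group 1 were at 1.82, 1.45, 1.61 and 2.00, and aged group 2 ran from 0.54 through a median of 1.54 to 2.26. Group means went from 2.30 in young to 1.72, 1.47 and 0.54. At Sstr4 aged group 1 had 2.44, 3.27, 2.85 and 2.56, and aged group 2 ran from 2.10 through 2.45 to 2.65, all 6 below the lowest young library. Its means were 3.04, 2.78, 2.45 and 2.11. At both peaks some animals of the middle groups thus already lay below the young range.

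At Scrn1 the middle groups lay near the young level. Aged group 1 had 3.34, 3.40, 3.39 and 3.31 and aged group 2 ran from 3.02 through 3.30 to 3.70, with means of 3.36 and 3.31 against 3.39 in young. Its difference from young was -0.04 ± 0.16 (SE) in aged group 1 and -0.08 ± 0.14 (SE) in aged group 2. Gfra2 was already lower in aged group 1, at 2.07, 2.16, 2.13 and 1.61, and its mean did not go down further in aged group 2 (1.99 and 2.07). In the other 7 peaks the mean went down in each step. Over the 8 losing peaks, 3 to 6 of the 6 aged group 2 libraries and 0 to 3 of the 4 aged group 1 libraries lay below the lowest young one, against 8 to 10 of 10 in aged group 3. These values share the young libraries that chose the genes, so they were not tested.

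Aged group 2 against aged group 1 uses libraries that played no part in the choice. None of the 15 H3K4me3 peaks passed an adjusted p under 0.05 (limma, Benjamini-Hochberg over all peaks), nor did any of the 25827 peaks, 0% in each direction. At the 8 losing peaks the differences ran from -0.34 to 0.07, and 7 of 8 were below 0. Over all H3K4me3 peaks the median of this contrast was -0.01. The share of all peaks below 0 is not given, so the count of 7 is a description and not a result. The smallest unadjusted p among the 8 losing peaks was 0.087 (limma), at Sstr4 (-0.33 ± 0.19, SE). At an unadjusted p under 0.05 stood 1 of 15 peaks, the inner Ptprs peak chr17:56469788-56470352 (-1.36 ± 0.46, SE, limma p = 0.00611, adjusted p = 1), against 659 peaks or 2.55% of all. In H3K27ac 0 of 20 peaks passed (0% of all peaks in each direction), 0 of 20 had an unadjusted p under 0.05, and 1511 of all peaks did (2.78%).

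H3K27ac at the 7 genes was the measurement that had no part in the choice. Between aged group 3 and young, 5 of 20 H3K27ac peaks fell and 1 rose at an adjusted p under 0.05 (limma, Benjamini-Hochberg over all 54354 peaks). That is 1 in 4 and 1 in 20, where 14.9% of all H3K27ac peaks fell and 14.4% rose. Coro2b had 3 of the peaks that fell, and Sntb1 and Sstr4 had 1 each. The peak that rose was at Ptprs, and none passed at Rasa4, Gfra2 or Scrn1. The median over the 20 peaks was -0.36, and over all peaks -0.06. An unadjusted p under 0.05 was reached by 12 of 20, against 43.3% of all peaks. The count that fell was 8 without aged group 3 replicate 4 and 9 without replicate 10, and 4 to 6 without any other library. The count with the code digit of the libraries as a factor was 2 that fell and 0 that rose.

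The H3K27ac peak past the 3′ end of Coro2b (chr9:62414483-62415659) covers the whole of the losing H3K4me3 peak there. Young libraries ran from 1.62 through a median of 1.97 to 2.11, and aged group 3 from 0.45 through 0.94 to 1.35. All 10 old libraries lay below all 7 young ones, an arrangement found at 0.21% of all H3K27ac peaks and at no other peak of the 7 genes. It fell by 0.98 ± 0.15 (SE) on the log2 scale (limma, adjusted p = 0.000314). Median reads were 51 in young and 23.5 in aged group 3. Aged group 1 had 1.68, 1.54, 1.11 and 1.62, and aged group 2 ran from 1.08 through 1.72 to 1.83. In both middle groups 2 libraries lay below the lowest young one. Library names carry a code whose meaning the labels do not give. With its first digit as a batch-like factor the difference was -0.98 (limma adjusted p = 0.00304).

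Of the 6 other H3K27ac peaks of Coro2b 2 more fell. An inner peak (chr9:62435322-62436893) went from 2.23 ± 0.22 (SD, n = 7) to 1.66 ± 0.25 (SD, n = 10), a difference of -0.57 ± 0.12 (SE, limma adjusted p = 0.00367), with 8 of 10 old libraries below the lowest young one. The inner H3K4me3 peak at the same place was at -0.11 ± 0.25 (SE). A peak 2060 bases past the 3′ end (chr9:62416601-62417430) went from 1.46 ± 0.36 to 0.85 ± 0.43 (SD, n = 7 and 10), at -0.61 ± 0.22 (SE, limma adjusted p = 0.0386). That call was lost on leaving out any of 11 of the 17 libraries, with adjusted p up to 0.0795. The other 4 ran from -0.67 to 0.55 and did not pass. No H3K27ac peak of the table lay within 21548 bases of the Coro2b start peak.

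The within-gene comparison asked whether H3K27ac over a losing peak moved apart from the other H3K27ac peaks of its gene. It could be made for 3 genes, and each animal gave 1 difference. The losing sites were set by H3K4me3 in these same animals, so the comparison is not independent of the choice. At Coro2b the peak over the losing site minus the mean of the other 6 averaged 0.30 ± 0.21 over 7 young and -0.36 ± 0.20 over 10 old animals (SD). Young animals ran from -0.11 to 0.55 and old ones from -0.64 to -0.09, so that 1 young and 1 old animal overlapped. The change was -0.66 (exact permutation test over 19448 arrangements, two-sided, p = 0.000103, lower than the young mean in 10 of 10 animals). The site itself changed by -0.98 and the mean of the other 6 peaks by -0.32. This site lies past the 3′ end of Coro2b, inside the span of Gm40523, so the comparison may reach beyond a single gene. The tissue score was not applied to the within-gene differences. With that score the site alone was at -0.83 (limma adjusted p = 0.0797). Within the 5 code digits that hold both groups the difference was lower in 5 of 5, with a mean of -0.66. At Scrn1 the change was 0.14 (exact permutation p = 0.696), where the start peak stood at -0.49 and the only other peak at -0.63. At Sntb1 it was 0.25 (exact permutation p = 0.314), with -0.38 over the losing peak and -0.63 for the mean of the other 3. Adjusted over the 3 tests (Benjamini-Hochberg), the exact permutation p-values were 0.000309 at Coro2b, 0.471 at Sntb1 and 0.696 at Scrn1.

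**Figure D3:**
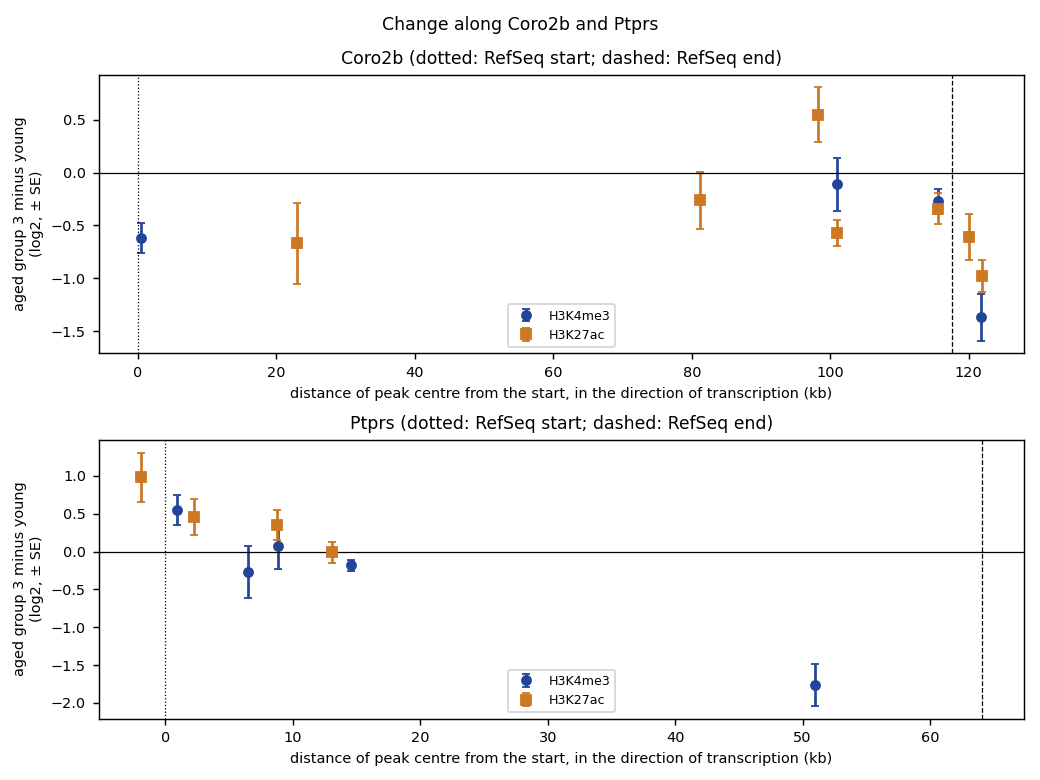
Difference of aged group 3 minus young (y axis, log2, mean ± SE) for each H3K4me3 and H3K27ac peak of Coro2b and Ptprs, by distance of the peak centre from the RefSeq start in the direction of transcription (x axis, kb). At Coro2b both marks reach their lowest value at the site past the 3′ end, and at Ptprs only an H3K4me3 peak, at -1.76, lies in the last part of the gene.

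At Sntb1 an inner H3K27ac peak (chr15:55867365-55868875, 38427 bases from the start) went from 1.67 ± 0.64 in young (SD, n = 7) to 0.66 ± 0.60 in aged group 3 (SD, n = 10). Young libraries ran from 0.47 through a median of 1.95 to 2.23 and old ones from -0.03 through 0.52 to 1.67. The groups overlapped widely, since young replicate 4 was at 0.47, and the peak fell by 1.00 ± 0.26 (SE, limma adjusted p = 0.00846). With the code digit as a factor it was -0.74 (limma adjusted p = 0.0998), and with the tissue score -0.20 (limma adjusted p = 0.878). The H3K27ac peak over the losing Sntb1 start (chr15:55904365-55907301) ran from 0.26 through 1.37 to 1.5 in young and from 0.14 through 0.79 to 1.29 in aged group 3, a difference of -0.38 ± 0.21 (SE, limma adjusted p = 0.153). It passed with reads in place of log2 RPKM (voom, adjusted p = 0.0159), and with the tissue score it was -0.36 (limma adjusted p = 0.751).

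At Sstr4 the single H3K27ac peak (chr2:148396619-148398820) begins 349 bases past the end of the H3K4me3 peak and covers the 3′ end of the gene. It ran from 1.60 through 1.91 to 1.96 in young and from 0.65 through 1.18 to 2.14 in aged group 3. It fell by 0.57 ± 0.18 (SE, limma adjusted p = 0.0221), with 7 of 10 old libraries below the lowest young one. Old replicates 3, 4 and 10 were at 1.80, 2.14 and 1.75, within or above the young range. With the code digit as a factor it was -0.41 (limma adjusted p = 0.194), and with the tissue score 0.01 (limma adjusted p = 0.993). At Scrn1 the H3K27ac start peak (chr6:54565530-54566998), inside the losing H3K4me3 peak, ran from 1.00 through 1.36 to 1.80 in young and from -0.22 through 0.82 to 2.03 in aged group 3. Its difference was -0.49 ± 0.21 (SE, limma adjusted p = 0.0709), with 9 of 10 old libraries below the young mean. It passed on the deposited values (-0.75, limma adjusted p = 0.0387), and with the tissue score it was -0.04 (limma adjusted p = 0.981).

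Ptprs carried the only H3K27ac peak that rose. It lies 436 bases upstream of the start (chr17:56476997-56479983), inside the broad H3K4me3 start peak; the deposited table calls it downstream, by chromosome order. It ran from 0.13 through a median of 0.45 to 1.55 in young and from 0.24 through 1.94 to 2.48 in aged group 3. The difference was 0.98 ± 0.33 (SE, limma adjusted p = 0.0283). Of the old libraries 6 lay between 1.75 and 2.48, above every young one, replicate 5 was at 1.07, and replicates 3, 4 and 10 lay between 0.24 and 0.53. The call was lost with the code digit as a factor (0.51, limma adjusted p = 0.314), and on leaving out any of 8 of the 17 libraries (limma adjusted p up to 0.0594). With the tissue score as a covariate the value was -0.17 (limma adjusted p = 0.919). The H3K27ac peak over the start itself was at 0.46 ± 0.24 (SE, limma adjusted p = 0.135). No H3K27ac peak lay within 34363 bases of the inner Ptprs peak that lost H3K4me3, and the nearest was at -0.01 ± 0.14 (SE).

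**Figure D4:**
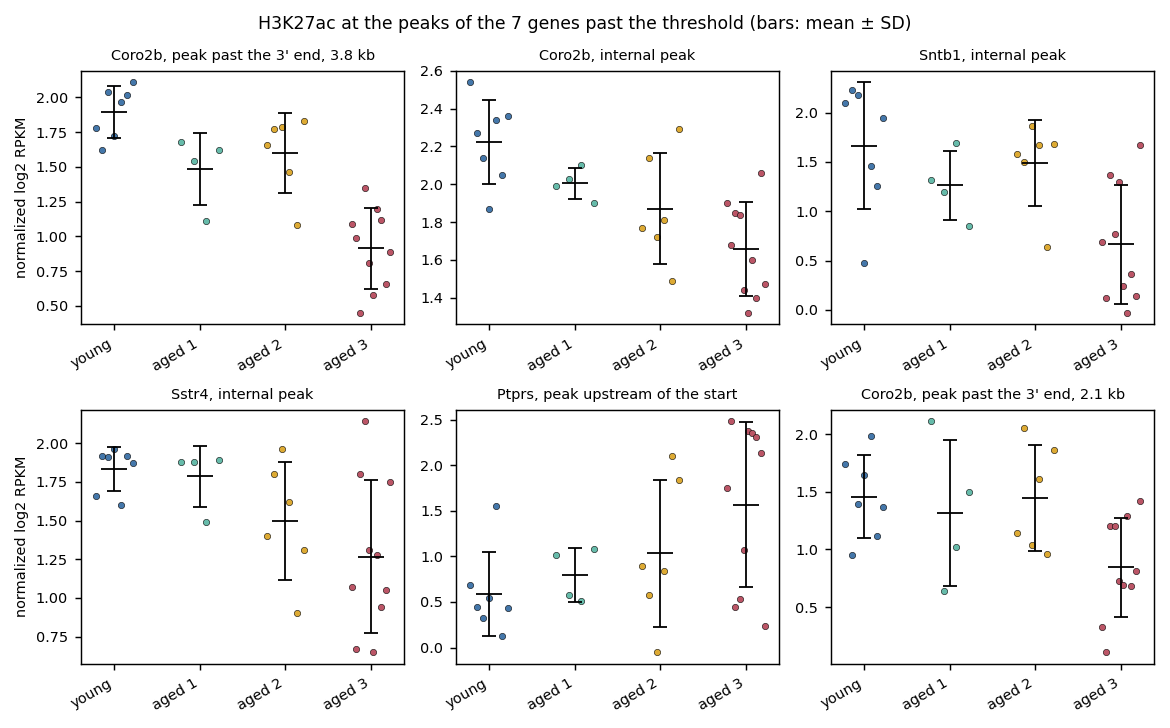
Normalized H3K27ac log2 RPKM (y axis) of each library at the 6 H3K27ac peaks past the threshold, by age group (x axis), with a point per animal and bars for the group mean ± SD. Only at the Coro2b peak 3.8 kb past the 3′ end do the young and aged group 3 points not overlap; the Ptprs peak is the one that is higher.

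The remaining H3K27ac peaks did not pass. The single Rasa4 peak, over its start, was at 0.21 ± 0.17 (SE, limma adjusted p = 0.352). The single Gfra2 peak, 75325 bases into the gene, was at 0.87 ± 0.37 (SE, limma adjusted p = 0.0701), with 6 of 10 old libraries above the highest young one. At Gfra2 the only H3K27ac peak and the only H3K4me3 peak thus had opposite signs, but with the tissue score the H3K27ac value was -0.05 (limma adjusted p = 0.987). Of the 8 losing H3K4me3 peaks 3 (37.5%) were overlapped by an H3K27ac peak, those of Scrn1, Sntb1 and Coro2b past its 3′ end. Over all H3K4me3 peaks the share was 80.9%. The 8 were chosen for their loss, and no share was taken over peaks of like level or width, so this contrast is not a result. The nearest H3K27ac peak was 70804 bases away at the Gfra2 start and 13245 bases away at the inner Rasa4 peak. Against young, aged group 2 had 0 of 20 H3K27ac peaks past the threshold, with 2 at an unadjusted p under 0.05 and a smallest adjusted p of 0.493 (limma). Over all peaks 0% were lower and 0.011% higher. Aged group 1 had 0 of 20, with 1 at an unadjusted p under 0.05 (0% of all peaks in each direction).

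Tissue markers moved with both marks. Of the 10 aged group 3 libraries 7 had a higher epithelium than stroma score in H3K4me3. The others, replicates 3, 4 and 10, had a difference of -0.22, -0.24 and -1.29, where young libraries ran from -1.37 to -0.24. In these 3 libraries 21 of the 24 values at the 8 losing peaks lay below the lowest young library. The genes were chosen on these values, so this count is not a result. Most of the 24 values were also high for their group. At the inner Ptprs peak the 3 were at 1.07, 1.89 and 0.71, above a group median of 0.55, and at Scrn1 at 3.00, 2.98 and 2.79, above a median of 2.72. Elsewhere the lowest of the 3 lay below the group median, at both losing Coro2b peaks, at Sntb1 and at Sstr4. At Sstr4 it was 1.72, the lowest of the whole group, against a median of 2.09. The part of tissue balance in the differences was not tested by these values. With the score as a covariate the 8 differences stayed below 0 and were smaller, from -0.37 at Sntb1 to -1.31 at Ptprs, with Scrn1 at -0.42 and Gfra2 at -0.68. In H3K27ac, with the score made from that mark, the Coro2b peak past the 3′ end was at -0.83 (limma adjusted p = 0.0797). None of the 20 peaks passed. Over all H3K27ac peaks 44 passed in that model, against 15904 without the covariate.

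Related genes of the same pathways were counted in the same fits of aged group 3 against young. All peaks of H3K4me3 were lower in 16.4% and higher in 14.2%, with a median of -0.02, and those of H3K27ac in 14.9% and 14.4%, with a median of -0.06. The lists were chosen with earlier results of these data known, so their counts are a description. Values named are those of single peaks. Partners of Ptprs, the type IIa receptor phosphatases with their ligands and effectors, had 19 of 44 H3K4me3 peaks lower and 0 higher, with a median of -0.48, at 24 of the 27 listed genes. Of these, 12 genes had a lower peak. Ptprd, a phosphatase of the same subfamily, had an inner peak 1760601 bases from its RefSeq start at -0.98 ± 0.18 (SE, limma adjusted p = 0.000634), while its start peak was at 0.44 ± 0.33 (SE, limma adjusted p = 0.312). Trio, a guanine nucleotide exchange factor that binds these receptors, had an inner peak at -1.01 ± 0.24 (SE, limma adjusted p = 0.00315). In H3K27ac 23 of 86 peaks of the list fell and 7 rose. Those included a Ppfia2 peak at -2.27 ± 0.49 and a Ptprf peak at 1.40 ± 0.35 (SE, limma adjusted p = 0.00335 and 0.00661), and another Ptprf peak fell by 0.93 ± 0.22 (SE, limma adjusted p = 0.00559). Trio had 8 H3K27ac peaks that fell and 2 that rose, among the latter one at 1.21 ± 0.27 (SE, limma adjusted p = 0.00373), and a Ptprd peak fell by 1.13 ± 0.24 (SE, limma adjusted p = 0.00336).

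The list of Ras GTPase-activating proteins and brakes on Ras, the relatives of Rasa4, had 5 of 29 H3K4me3 peaks lower and 3 higher, with a median of -0.07. Over all peaks 16.4% were lower and 14.2% higher in H3K4me3, and 14.9% and 14.4% in H3K27ac. Peaks of Dab2ip (-0.55 ± 0.12) and Spred3 (-0.41 ± 0.11) fell, and peaks of Nf1 (0.79 ± 0.22) and Rasal2 (0.57 ± 0.17) rose (SE, limma adjusted p from 0.00228 to 0.0115). Another Rasal2 peak fell by 1.47 ± 0.55 (SE, limma adjusted p = 0.0443). In H3K27ac 6 of 66 fell, among them Rasa3 (-0.98 ± 0.19) and an Nf1 peak (-0.69 ± 0.19), and 9 rose, among them peaks of Spred2 (0.89 ± 0.20), Rasa2 (1.44 ± 0.36) and again Nf1 (1.41 ± 0.46). Coronins and actin-turnover genes had 3 of 32 H3K4me3 peaks lower and 5 higher, with a median of 0.01. Coro2a, the closest relative of Coro2b, was higher, from -0.26 in young to 1.74 in aged group 3, a difference of 2.00 ± 0.30 (SE, limma adjusted p = 6.17e-05), at an inner peak 19820 bases from its start. The Coro2a start peak was at 0.34 ± 0.15 (SE, limma adjusted p = 0.081) and did not pass. The inner Coro2a peak thus differed in sign from the losing Coro2b peaks. Values with the tissue score in the model were not examined for Coro2a. Ssh3, a cofilin phosphatase, rose by 0.46 ± 0.097 (SE, limma adjusted p = 0.0016). Coro1c and Ssh2 fell by 0.21 ± 0.052 and 0.25 ± 0.079 (SE, limma adjusted p = 0.00475 and 0.0203). In H3K27ac 5 of 84 peaks fell and 8 rose, with Wdr1 on both sides (-0.80 ± 0.19 and 0.58 ± 0.16), Ssh2 at -0.93 ± 0.26 and Actr2 at 1.14 ± 0.29 (SE).

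The dystrophin complex, to which Sntb1 belongs, had 8 of 30 H3K4me3 peaks lower and 3 higher, and 20 of 85 H3K27ac peaks lower and 5 higher, with medians of -0.13 and -0.19. Over all peaks 16.4% were lower and 14.2% higher in H3K4me3, and 14.9% and 14.4% in H3K27ac. The Sntb1 paralog Sntb2 fell at the start in both marks, by 0.80 ± 0.17 in H3K4me3 and 0.73 ± 0.17 in H3K27ac (SE, limma adjusted p = 0.00161 and 0.00495). Sspn, sarcospan of the same membrane complex, fell by 0.82 ± 0.17 in H3K4me3 (SE, limma adjusted p = 0.00151), and Sgcd, delta-sarcoglycan, by 1.56 ± 0.39 in H3K27ac (SE, limma adjusted p = 0.00685). Utrn, the dystrophin relative utrophin, rose at inner peaks by 1.08 ± 0.38 in H3K4me3 and 0.89 ± 0.24 in H3K27ac, and a Dtnb peak rose by 1.08 ± 0.38 in H3K27ac (SE, limma adjusted p = 0.0314, 0.00928 and 0.0341). Both Utrn and Dtnb also had peaks that fell: the Utrn start by 0.23 ± 0.076 in H3K4me3, an inner Utrn peak by 0.70 ± 0.26 in H3K27ac and a Dtnb peak by 0.64 ± 0.21 in H3K27ac (SE, limma adjusted p = 0.0211, 0.0394 and 0.0237).

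For Gfra2 the GDNF-family list had 3 of 12 H3K4me3 peaks lower and 2 higher, and 0 of 15 H3K27ac peaks lower and 2 higher. Over all peaks 16.4% were lower and 14.2% higher in H3K4me3, and 14.9% and 14.4% in H3K27ac. Nrtn, which encodes neurturin, the ligand of Gfra2, rose at the start by 0.80 ± 0.28 in H3K4me3 and 8694 bases away by 1.58 ± 0.43 in H3K27ac (SE, limma adjusted p = 0.0305 and 0.0102). Ligand and co-receptor thus had H3K4me3 differences of opposite sign. Values with the tissue score in the model were not examined for Nrtn. Gdf15 also rose, by 0.68 ± 0.25 and 0.93 ± 0.30 in the 2 marks (SE, limma adjusted p = 0.0406 and 0.0243). Ncam1, an alternative signalling receptor of the family, fell by 0.48 ± 0.095 and Artn, the ligand artemin, by 0.63 ± 0.21 in H3K4me3 (SE, limma adjusted p = 0.000952 and 0.0246). Of the secernins, Scrn2 fell in both marks, by 0.19 ± 0.071 in H3K4me3 and 0.62 ± 0.15 in H3K27ac (SE, limma adjusted p = 0.0431 and 0.00591). Of 6 other somatostatin ligands and receptors only 1 had a peak in either mark, and it did not pass. Both marker lists and related lists were read in the same tissue, and the part of the shift in epithelial and stromal markers in these counts was not tested.

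The H3K4me3 peaks elsewhere in the genome that followed each losing peak most closely over the 27 libraries were found by Pearson correlation, a description over libraries that share the age groups. The inner Ptprs peak was followed most closely by peaks of Ccbe1 and Gpc3 (r = 0.907 for both), and Scrn1 by Ttc28 (r = 0.928) and Sec24d (r = 0.925). Gfra2 was followed by Zfp334 (r = 0.906) and Tet1 (r = 0.902), and Sstr4 by Bmper (r = 0.885) and Adam22 (r = 0.874). For the inner Rasa4 peak they were Opcml (r = 0.876) and Mos (r = 0.859), for Sntb1 Soga1 (r = 0.865) and Rhbdl3 (r = 0.863), and for Coro2b past its 3′ end Trpc6 (r = 0.828) and Dusp10 (r = 0.825). All 14 were lower in aged group 3, from -0.34 at Dusp10 to -1.81 at Opcml. They were picked for likeness to peaks chosen for their loss, so this direction largely follows from the choice. Among neighbours, the nearest H3K4me3 peak of another gene to Sstr4 was that of Thbd, 7.6 kb away, with means of 3.78 in young and 3.37 in aged group 3. Polr2j, 13.0 kb from the inner Rasa4 peak, had means of 4.20 and 4.36. Fkbp14, 24.1 kb from Scrn1, had means of 3.67 and 3.57. Dok2, 107.7 kb from Gfra2, had 3.5 and 3.31, and Znrf4, 80.8 kb from the inner Ptprs peak, 3.64 and 3.52. Beside Coro2b the neighbours were lower too: Itga11, 140.2 kb from its start peak, had 2.90 and 1.95, and Anp32a, 50.6 kb from the peak past its 3′ end, had 2.03 and 1.53. The nearest such peak to Sntb1, 127.5 kb away, had no gene name and means of -4.20 and -2.71.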

How the data were processed

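H3K4me3 and H3K27ac were measured by native chromatin immunoprecipitation with sequencing, with 27 libraries per mark. Per the labels' protocols, 20000 nuclei per aliquot were cut by micrococcal nuclease, incubated with 250 ng of antibody and sequenced as paired reads of 75 bases. The deposited values are log2 RPKM per peak and library, as the authors named them. Per the submitters' processing notes, deepTools 3.5.1, ChIPseeker 1.34.1, DESeq2, DiffBind 3.8.0, MACS2 2.2.9.1, Bowtie2 and the build GRCm38 are named, and the role of each in making the tables is not given in the sources used here. RPKM carries total depth, so libraries with more of their reads in peaks (36.3% to 75.8% in H3K4me3, 32.3% to 48.7% in H3K27ac) read higher at every peak. Quantile normalization across a mark's libraries removes that, together with any shift shared by all peaks.

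Peaks on chromosomes 1 to 19 and X were fitted, 25827 of 25835 and 54354 of 54362, leaving out 8 per mark on Y. The model (limma 3.58.1, R 4.3.3, eBayes with trend) held 4 group means, was two-sided and adjusted by Benjamini-Hochberg over all peaks at 0.05. Of all values 100.0% were whole reads within 0.05, or 0.9 reads where a peak had none. These recovered reads served limma voom as an added alternative. The exact permutation test was run on the normalized values. A simulated check of the fits used counts drawn from peak means and library sizes, with planted changes. Its outcome is not given here. Overlap meant at least 1 base, and a promoter peak lay within 1 kb of a single RefSeq start. RefSeq gave gene extents only, so exons and introns were not examined.

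The members, the related lists and the marker lists were chosen with earlier results of these data known. Named were all members. Full values were given for the strongest losing peak of each gene and for its overlapping or nearest H3K27ac peak. From related lists the 2 smallest p per direction and mark were named, and for likeness the 2 highest correlations more than 1 Mb away. One H3K4me3 column name lacked its leading code digit and was matched by its other characters to young replicate 4. Alternatives covered normalization, low peaks, log2(RPKM + 1), library-code digit, mouse-number series, replicate block, tissue score, the groups in the model and each library left out.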

Additional observations from a re-analysis of the deposited data

Results flagged for a closer look

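Of 56 groups of 4 to 10 libraries examined at the named peaks, 2 held a library far from the others, and chance flags about 1 in 20 groups. H3K4me3 at the Gfra2 start in aged group 1 replicate 4 was the lowest of its group at 1.61, where the other 3 lay between 2.07 and 2.16. H3K27ac at the Sstr4 peak in aged group 1 replicate 3 was the lowest at 1.49, where the other 3 lay between 1.88 and 1.89.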

How the results depend on the processing

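The 8 H3K4me3 losses were below 0 under every setting run. These peaks were chosen on the same libraries and contrast, so their sign was largely set in advance and tests nothing. With the tissue score as a covariate Scrn1 was at -0.42, Gfra2 at -0.68 and Sntb1 at -0.37, and with a factor for the first digit of the library code the 8 ran from -0.54 to -1.55. The cause was not tested. H3K4me3 peaks past the threshold over the whole table, 7921, came to 5247 with low peaks left out (fewer peaks tested), 2332 with the code digit, 176 with the score, 3608 with the mouse-number series and 2480 without code digit 6 (fewer samples). For H3K27ac, 15904 came to 10547, 1365, 44, 7334 and 1957. Digit 6 holds no young library. Digit 1 holds none either and was kept. Of the members' H3K27ac peaks, 5 fell. The number was 9 on deposited values, 8 by voom, 2 with the digit, 0 with the score, 3 with the series and 2 without digit 6. The 1 that rose became 2 with log2(RPKM + 1) and 0 with the digit, the score, the series or without digit 6. The score turned Sstr4 H3K27ac to 0.01 and the upstream Ptprs peak to -0.17. Leaving out single libraries gave 4 to 9 peaks that fell and 0 to 3 that rose, with 9764 and 6147 as highest and lowest totals for H3K4me3, 21270 and 10886 for H3K27ac, and 0 to 1 H3K4me3 peaks in aged group 2 against 1. The 8 and 9 peaks that fell came without aged group 3 replicate 4 and replicate 10. The Coro2b within-gene value ran from -0.73 to -0.62.

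Same-numbered animals did not deviate together (r from -0.22 to 0.20 in H3K4me3 and -0.30 to 0.27 in H3K27ac for young and aged group 3), and 1 and 2 of 7 correlated best with their own number. For aged groups 1 and 2, r ran from -0.08 to 0.08 and from -0.31 to 0.28. With the replicate block 6 member H3K27ac peaks fell and 1 rose, 6842 H3K4me3 and 16064 H3K27ac peaks passed, the 8 losses ran from -0.50 to -1.62 and the Coro2b peak 2060 bases past the 3′ end was at an adjusted p of 0.0507 (limma).

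Count models of edgeR and DESeq2 were not run on these log2 values, and limma voom took their place. The mouse-number series could not enter aged group 2 against 1, where all numbers are of the same series. Settings for the H3K4me3 losses beyond those planned, voom, and the fit without digit 6 were chosen after seeing the data. Depth limits the inner Rasa4 and Ptprs peaks most, with as few as 2 and 3 reads.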
